A study of Mus musculus with 5 samples.

Results

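Fibroblast growth factor (FGF) genes, their receptors and the Sprouty and Spred inhibitors of the pathway formed a group of 34 genes, chosen by symbol: 22 ligand or ligand-like genes (Fgf1 to Fgf18 and Fgf20 to Fgf23 as the mouse has them), 5 receptor genes, 4 Sprouty genes and 3 Spred genes. A peak belonged to a gene when the deposited peak list gave it that gene's name, and 206 of the 89451 peaks in 3 lists did so. The lists came from ChIP-seq, in which DNA bound by a protein is recovered with an antibody and sequenced, and a peak is a stretch where recovered reads pile up. The cells were cardiac progenitors (CP) made from the mouse embryonic stem cell line 46C, in serum-free medium that received BMP4, Activin A and VEGF and later VEGF, FGF10 and basic FGF. Zhx1-KO hnRNPA1 was the hnRNPA1 ChIP in a 46C line edited with CRISPR/Cas9 guides at the start and the end of Zhx1 and picked by PCR. 46C-Ctrl ZHX1 and 46C-Ctrl hnRNPA1 were ChIPs in the control line. The ZHX1 protein carries zinc fingers and homeodomains, while hnRNPA1 binds RNA and has a known role in splicing. Each group had 1 library, so no difference could be tested, and the 95% intervals given for shares (Wilson) reflect counting error alone. The lists hold no expression, so the CP label could not be checked against markers here.

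Secreted FGFs bind a receptor tyrosine kinase together with heparan sulfate and signal largely through Ras, while Sprouty and Spred proteins restrain that signal. Fgf8 and Fgf10 are ligands of the second heart field, the progenitor population that adds the outflow tract and right ventricle to the heart tube, and Fgf9, Fgf16 and Fgf20 act from the outer and inner layers of the heart on growth of the myocardium. Fgf11 to Fgf14 stay inside the cell and bind sodium channels, and Fgf15, Fgf21 and Fgf23 travel in the blood and need a Klotho protein.

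Some of the DNA under these peaks is printed here from GRCm38, in the direction of each gene, to show what kinds of sequence were involved. The Fgfr2 and Spred2 peaks are the single-copy positions that 2 lists shared, with the bases common to both lists in capitals.
Fgfr2 ZHX1 peak (chr7:130278615-130278842): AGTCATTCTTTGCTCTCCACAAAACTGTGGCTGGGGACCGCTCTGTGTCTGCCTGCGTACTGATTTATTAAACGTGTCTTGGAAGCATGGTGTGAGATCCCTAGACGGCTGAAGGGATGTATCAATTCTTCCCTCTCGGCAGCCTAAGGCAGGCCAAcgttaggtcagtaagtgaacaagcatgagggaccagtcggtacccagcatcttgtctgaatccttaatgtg
Spred2 ZHX1 peak (chr11:19540902-19541129): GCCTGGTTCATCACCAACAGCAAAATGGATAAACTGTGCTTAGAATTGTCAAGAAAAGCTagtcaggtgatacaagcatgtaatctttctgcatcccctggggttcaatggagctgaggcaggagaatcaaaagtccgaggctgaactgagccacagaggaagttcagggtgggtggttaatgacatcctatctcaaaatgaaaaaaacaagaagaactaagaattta
The intron peaks of Fgf10 follow, the ZHX1 one with the bases that the assembly masks as repeats in capitals, and the 46C-Ctrl hnRNPA1 one with capitals on ATTGG, the other strand of the NF-Y word CCAAT.
Fgf10 ZHX1 peak (chr13:118725280-118725507): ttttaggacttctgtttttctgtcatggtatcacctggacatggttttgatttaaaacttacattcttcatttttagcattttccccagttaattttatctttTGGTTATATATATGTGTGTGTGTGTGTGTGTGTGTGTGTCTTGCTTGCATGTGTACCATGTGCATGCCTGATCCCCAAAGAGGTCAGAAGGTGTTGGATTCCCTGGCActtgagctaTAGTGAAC
Fgf10 46C-Ctrl hnRNPA1 peak (chr13:118773801-118774056): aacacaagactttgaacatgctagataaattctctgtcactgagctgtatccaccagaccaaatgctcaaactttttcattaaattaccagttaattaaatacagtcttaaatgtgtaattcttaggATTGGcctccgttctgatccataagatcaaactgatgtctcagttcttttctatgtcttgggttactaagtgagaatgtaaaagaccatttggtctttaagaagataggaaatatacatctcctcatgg
The Fgf18 and Fgf22 peaks lay near a transcription start and are printed, with each CG in capitals. The Fgf18 stretch stops 1 base short of the transcript, and the Fgf22 peak holds 0 CG.
Fgf18 Zhx1-KO hnRNPA1 peak (chr11:33147401-33147633): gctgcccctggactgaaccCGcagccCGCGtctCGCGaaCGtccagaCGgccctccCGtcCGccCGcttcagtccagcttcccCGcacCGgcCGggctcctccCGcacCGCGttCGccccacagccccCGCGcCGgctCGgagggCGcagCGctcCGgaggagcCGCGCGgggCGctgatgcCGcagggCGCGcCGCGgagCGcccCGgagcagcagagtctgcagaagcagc
Fgf22 46C-Ctrl hnRNPA1 peak (chr10:79755525-79755747): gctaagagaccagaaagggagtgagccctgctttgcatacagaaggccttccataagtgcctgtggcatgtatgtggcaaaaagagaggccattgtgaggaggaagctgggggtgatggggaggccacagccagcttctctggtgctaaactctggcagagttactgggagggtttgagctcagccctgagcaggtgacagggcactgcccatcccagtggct

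The Zhx1-KO hnRNPA1 list gave a member's name to 123 of 51545 peaks, the ZHX1 list to 56 of 23244 and the 46C-Ctrl hnRNPA1 list to 27 of 14662. As a share of the list this was 0.239% (0.2 to 0.285) for Zhx1-KO hnRNPA1, 0.241% (0.186 to 0.313) for ZHX1 and 0.184% (0.127 to 0.268) for 46C-Ctrl hnRNPA1, and the 3 intervals overlapped. The larger number in Zhx1-KO thus went with a list that was longer as a whole. Read counts and depth are unknown for every list, so more binding and a longer list for another reason cannot be told apart.

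By gene, 28 of the 34 members (82.4%, 66.5 to 91.7) had a Zhx1-KO hnRNPA1 peak, against 60.1% of the 21000 protein-coding genes with a curated RefSeq mRNA. For ZHX1 it was 18 members (52.9%, 36.7 to 68.5), against 42.2% of protein-coding genes. For 46C-Ctrl hnRNPA1 it was 14 members (41.2%, 26.4 to 57.8), against 32.6%. The members' share was the higher one in each list, and its interval held the share of all genes in both 46C-Ctrl lists. For Zhx1-KO hnRNPA1 it did not, but the interval reflects counting error alone and no difference was tested. The members also differed from other genes in their flanking DNA, whose part in these shares was not tested. The stretch of genome nearer to a gene's start than to any other curated start had a median of 66.5 kb over 33 members and 42.5 kb over all protein-coding genes. All genes were ranked by this length and divided into 5 classes of 4200. In the longest class, 15 of 15 members had a Zhx1-KO hnRNPA1 peak against 90.3% of genes, 12 had a ZHX1 peak against 77.3%, and 11 had a 46C-Ctrl hnRNPA1 peak against 65.6%. From the shortest class up, the other classes had a Zhx1-KO hnRNPA1 peak at 3 of 5, 1 of 3, 6 of 6 and 3 of 4 members. The shares of genes there were 24.2%, 45%, 62.9% and 78.3%. For ZHX1 the same classes had 0, 2, 1 and 3 members, against 14.6%, 26.6%, 38% and 54.5%. For 46C-Ctrl hnRNPA1 they had 1, 1, 1 and 0, against 9.79%, 19%, 28.4% and 40%. At the shares of all genes in their own classes, 23 members would be named in Zhx1-KO hnRNPA1, where 28 were, 17.6 in ZHX1, where 18 were, and 14.2 in 46C-Ctrl hnRNPA1, where 14 were. Over the members' 5.93 Mb the density was 20.2 Zhx1-KO hnRNPA1 peaks per Mb, against 19.5 over the genome. It was 9.1 ZHX1 peaks per Mb against 8.78, and 4.55 46C-Ctrl hnRNPA1 peaks per Mb against 5.54. Counted per length of DNA, the members were close to the genome in all 3 lists.

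**Figure D1:**
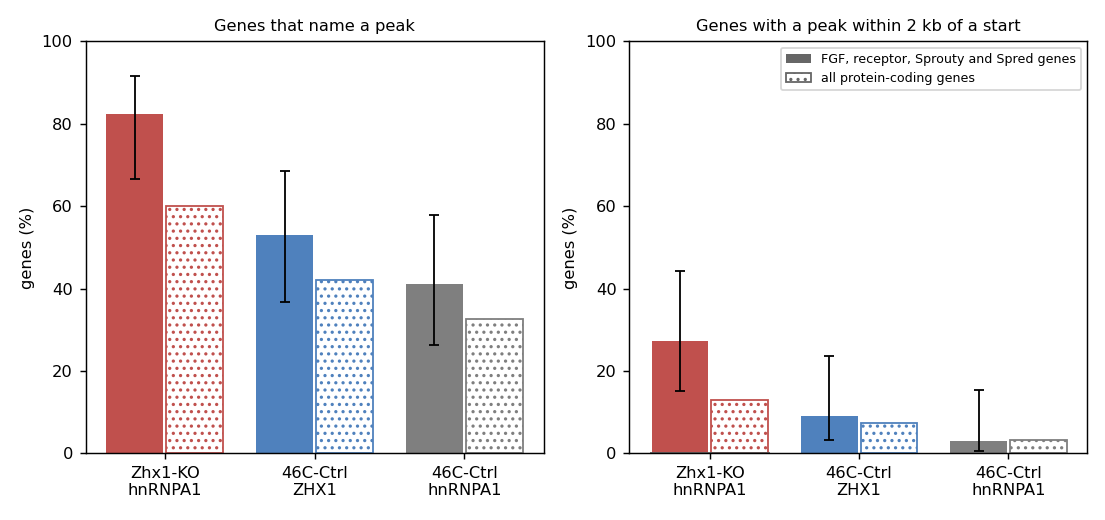
Share of genes (%) that name a peak (left) and that have a peak centred within 2 kb of a transcription start (right). Filled bars are the FGF, receptor, Sprouty and Spred genes with Wilson 95% intervals, dotted bars are all protein-coding genes, and from left to right stand Zhx1-KO hnRNPA1 (82.4% against 60.1% on the left), 46C-Ctrl ZHX1 (52.9% against 42.2%) and 46C-Ctrl hnRNPA1 (41.2% against 32.6%).

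All 3 lists named 10 members, Fgf1, Fgf7, Fgf9, Fgf10, Fgf12, Fgf18, Fgf20, Fgfr2, Spry2 and Spred2, which is 29.4% of the members, against 18.7% of protein-coding genes. Zhx1-KO hnRNPA1 and ZHX1 alone named 6 (Fgf3, Fgf4, Fgf14, Fgfr1, Fgfr3 and Spry4), or 17.6% against 14.7% of protein-coding genes. Both hnRNPA1 lists alone named 3 (Fgf16, Fgf22 and Spred1), or 8.82% against 7.96%, and Fgf15 (2.94% against 2.14%) stood in both 46C-Ctrl lists and not in Zhx1-KO. Zhx1-KO hnRNPA1 was the only list for 9 members (Fgf2, Fgf6, Fgf11, Fgf13, Fgf17, Fgf23, Fgfr4, Fgfrl1 and Spry1), or 26.5% against 18.7%. ZHX1 was the only list for Fgf5 (2.94% against 6.65%) and 46C-Ctrl hnRNPA1 for 0 members, against 3.75%. The names of Fgf8, Fgf21, Spry3 and Spred3 stood in no list, which is 11.8% against 27.3%. Spry3 lies on an unplaced scaffold of the X chromosome in the annotation, so distances and promoters were taken for the other 33 members.

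**Figure D2:**
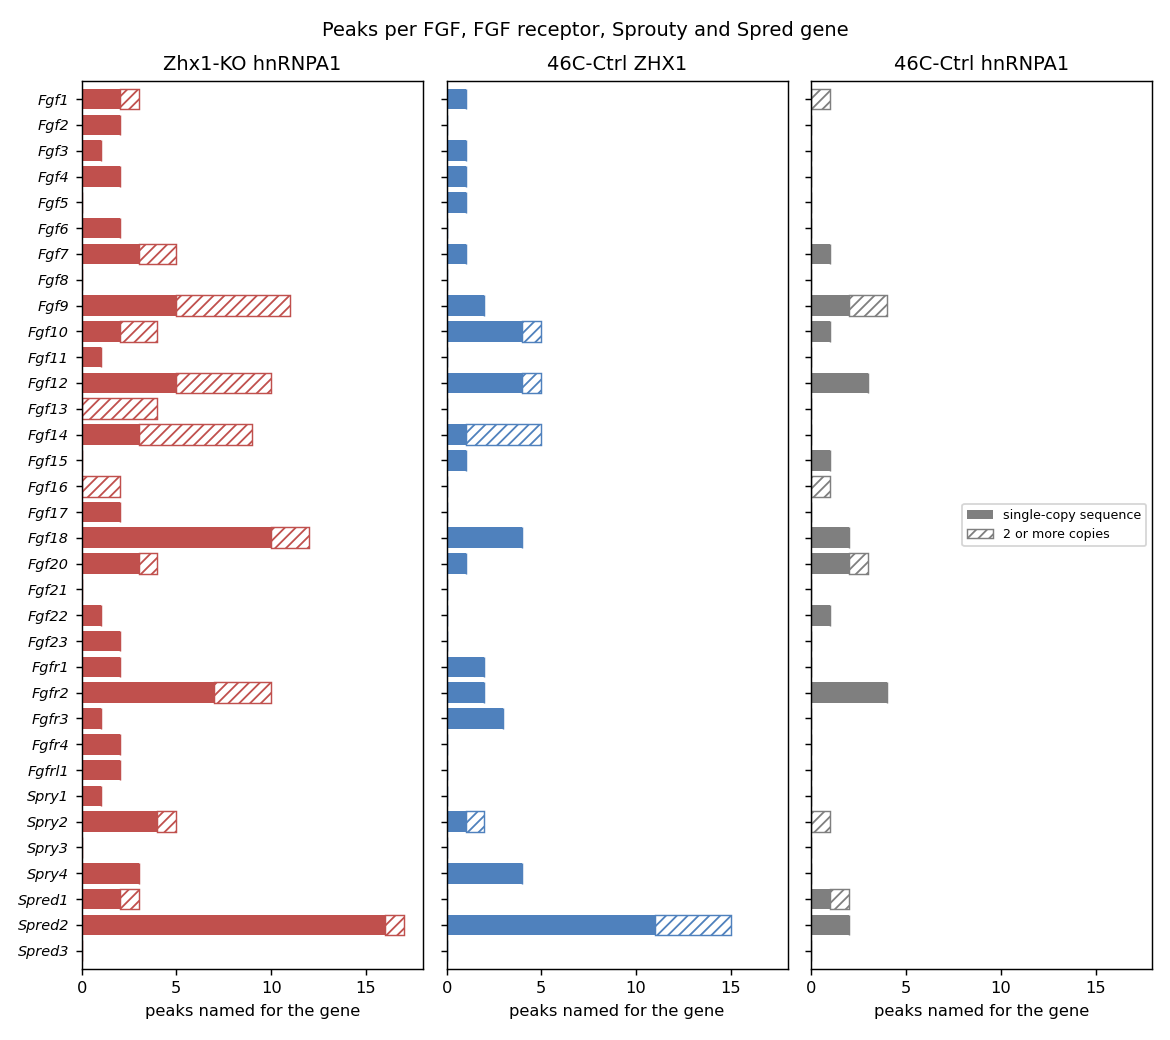
Number of peaks (x axis) that carry the name of each of the 34 genes (rows), in the Zhx1-KO hnRNPA1, 46C-Ctrl ZHX1 and 46C-Ctrl hnRNPA1 lists from left to right. Filled parts are peaks in single-copy sequence and hatched parts peaks whose sequence occurs 2 or more times in the assembly, and Spred2 has the longest bar in the first 2 panels, with 17 and 15 peaks.

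Many of these peaks lay far from the gene that names them, as did many peaks of the whole lists. The median distance to the nearest curated start was 60.7 kb for member peaks in Zhx1-KO hnRNPA1 against 38.4 kb over the list, 81.1 kb in ZHX1 against 34.8 kb, and 36.6 kb in 46C-Ctrl hnRNPA1 against 33.6 kb. Of the 123 Zhx1-KO hnRNPA1 peaks 16 were centred within 5 kb of a start of their gene and 71 more than 50 kb from one. For ZHX1 it was 6 and 35 of 56 peaks, and for 46C-Ctrl hnRNPA1 2 and 12 of 27. Over the 3 lists 100 peaks lay upstream of the gene, 52 downstream and 47 in an intron. Of the rest 5 lay over an exon with untranslated sequence and 2 over a coding exon. These counts by distance and by feature were made for member peaks only, without the same counts over the whole lists.

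A promoter peak, centred within 2 kb of a curated start, was found at 9 of 33 members in Zhx1-KO hnRNPA1 (27.3%, 15.1 to 44.2), against 13% of protein-coding genes. ZHX1 had one at 3 members (9.09%, 3.14 to 23.6), against 7.29%, and 46C-Ctrl hnRNPA1 at 1 (3.03%, 0.537 to 15.3), against 3.32%. The ZHX1 and 46C-Ctrl hnRNPA1 shares were near those of all genes, and the Zhx1-KO hnRNPA1 share was higher. Its interval, from 15.1%, did not hold the 13% of all genes, but it reflects counting error alone and no difference was tested. Within 1 kb of a start the Zhx1-KO hnRNPA1 number was 6, a count made for members only. The 9 Zhx1-KO hnRNPA1 genes were Fgf1, Fgf7, Fgf9, Fgf11, Fgf12, Fgf17, Fgf18, Fgfr3 and Fgfrl1, the ZHX1 genes were Fgf12, Fgf18 and Fgfr1, and the 46C-Ctrl hnRNPA1 gene was Fgf22. No member had a promoter peak in both hnRNPA1 lists, a combination that 105 of 21000 protein-coding genes showed without a ZHX1 peak and 24 with one. Just inside the 2 kb limit stood Fgf7 at 1.98 kb, and just outside it a second Fgf17 peak at 2.04 kb.

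Fgf8, the ligand that patterns the second heart field and the outflow tract, had 0 peaks by name in each list. Its gene is short (6.4 kb, chr19:45736491-45742894, minus strand) and sits among close neighbours, so the stretch nearest to its starts is 9.51 kb. The nearest peaks carried other genes' names: 37.6 kb away in Zhx1-KO hnRNPA1 (4933429K18Rik), 31.6 kb away in ZHX1 (Oga) and 132 kb away in 46C-Ctrl hnRNPA1 (Fbxw4). At the genome-wide densities a stretch of that length would hold 0.185 Zhx1-KO hnRNPA1, 0.0835 ZHX1 and 0.0527 46C-Ctrl hnRNPA1 peaks, so 0 peaks did not set Fgf8 apart.

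Fgf10, the other heart field ligand and also a factor in the medium of the later differentiation, had 4 peaks in Zhx1-KO hnRNPA1, 5 in ZHX1 and 1 in 46C-Ctrl hnRNPA1. The gene covers 77.9 kb (chr13:118714699-118792573, plus strand) and its stretch 375 kb. All 4 Zhx1-KO hnRNPA1 peaks lay beyond the 3′ end, at 99, 101, 282 and 289 kb from the start, and those at 101 and 289 kb were in sequence of 247 and 59 copies. The ZHX1 peaks stood 3.3 kb upstream of the start (chr13:118711218-118711580), in an intron at 10.7 kb (printed above), and 161, 228 and 238 kb from the start beyond the gene. The single 46C-Ctrl hnRNPA1 peak was in an intron 59.2 kb from the start. No Fgf10 peak of one list overlapped a peak of another. Zhx1-KO hnRNPA1 thus had no peak over the gene itself, where each 46C-Ctrl list had 1. Counts this small cannot set the lists apart at Fgf10, and no difference was tested. Of 33 members, 16 had a peak over the gene in Zhx1-KO hnRNPA1, the longest list, 10 in ZHX1 and 7 in 46C-Ctrl hnRNPA1. The same count over all protein-coding genes was not made, so these numbers do not set the members apart. Per Mb the Fgf10 stretch held 10.7 Zhx1-KO hnRNPA1, 13.3 ZHX1 and 2.66 46C-Ctrl hnRNPA1 peaks, against 19.5, 8.78 and 5.54 over the genome.

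Fgf18, a ligand best known from bone and lung, had peaks at its start in both the Zhx1-KO hnRNPA1 and the ZHX1 list. In all it had 12 peaks in Zhx1-KO hnRNPA1, 4 in ZHX1 and 2 in 46C-Ctrl hnRNPA1. One Zhx1-KO hnRNPA1 peak (chr11:33147396-33147633) was centred 115 bp before the start, another lay 1.71 kb inside the gene, and the ZHX1 list had a peak 898 bp before the start (chr11:33148116-33148479). The start peak of Zhx1-KO hnRNPA1 and that of ZHX1 were 0.783 kb apart, centre to centre, and shared no base. The other Zhx1-KO hnRNPA1 peaks followed at 6.7 to 160 kb, 2 of them inside the gene, and 46C-Ctrl hnRNPA1 had none nearer than 62.8 kb. The 3 Zhx1-KO hnRNPA1 and 2 ZHX1 peaks farthest downstream are nearer to the start of another gene, Gm12111. Without these the stretch of 118 kb held 76 Zhx1-KO hnRNPA1, 16.9 ZHX1 and 16.9 46C-Ctrl hnRNPA1 peaks per Mb.

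Fgf18, Spred2 and Fgf11 lie on chromosome 11, the autosome with the most peaks per Mb in every list. Its density was 39.6 Zhx1-KO hnRNPA1 peaks per Mb, with 16.9 to 22.7 for the other autosomes, 14.7 ZHX1 peaks against 7.42 to 10.4, and 10.6 46C-Ctrl hnRNPA1 peaks against 4.36 to 6.59. These 3 genes took 30 of the 123 Zhx1-KO hnRNPA1 peaks, 19 of the 56 ZHX1 peaks and 4 of the 27 46C-Ctrl hnRNPA1 peaks, and without them the ZHX1 number was 37. How far the density of the chromosome accounts for these counts was not tested.

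**Figure D3:**
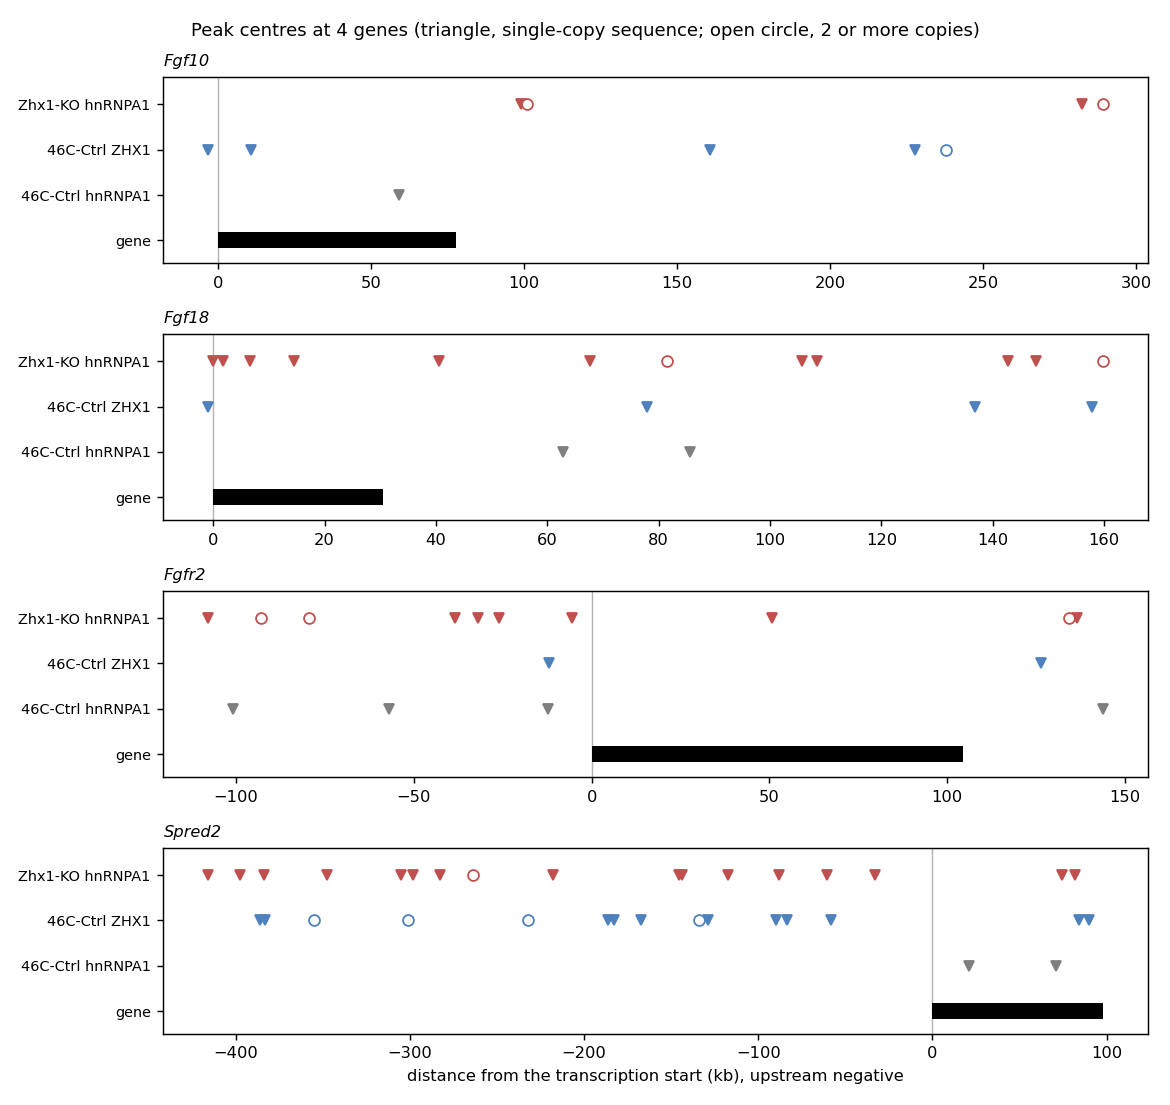
Peak centres by distance from the transcription start (kb, upstream negative) at Fgf10, Fgf18, Fgfr2 and Spred2. Rows from top to bottom are Zhx1-KO hnRNPA1, 46C-Ctrl ZHX1, 46C-Ctrl hnRNPA1 and the gene (black bar), filled triangles are single-copy peaks and open circles peaks in sequence of 2 or more copies. Zhx1-KO hnRNPA1 and ZHX1 peaks run up to 416 kb and 386 kb upstream of Spred2, where 46C-Ctrl hnRNPA1 has none.

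Among the other secreted ligands, Fgf9, which acts on the growth of the heart muscle, had 11 peaks in Zhx1-KO hnRNPA1, 2 in ZHX1 and 4 in 46C-Ctrl hnRNPA1. Only 1 was near the start, a Zhx1-KO hnRNPA1 peak 1.38 kb upstream (chr14:58071120-58071498) with 65.2% GC. A cluster of both hnRNPA1 lists lay 10.4 to 17.9 kb upstream. There Zhx1-KO hnRNPA1 had 4 peaks and 46C-Ctrl hnRNPA1 2, which interleaved without overlap, and all but 1 Zhx1-KO hnRNPA1 peak were in sequence of 779 or more copies. A further 46C-Ctrl hnRNPA1 peak lay in an intron at 31.3 kb. The downstream peaks reached 521 kb in Zhx1-KO hnRNPA1, 279 kb in ZHX1 and 368 kb in 46C-Ctrl hnRNPA1.

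Fgf1, the ligand that binds every FGF receptor, had 3 peaks in Zhx1-KO hnRNPA1, 1 in ZHX1 and 1 in 46C-Ctrl hnRNPA1. One Zhx1-KO hnRNPA1 peak lay in an intron 0.96 kb from the start (chr18:38917627-38917850), and 3 more Zhx1-KO hnRNPA1 peaks inside the gene carried the name of the overlapping gene Gm5820. Fgf7, the keratinocyte growth factor, had 5 peaks in Zhx1-KO hnRNPA1, 1 in ZHX1 and 1 in 46C-Ctrl hnRNPA1. Its Zhx1-KO hnRNPA1 promoter peak (chr2:126036499-126036769) lay in an intron, and 4 others stood 15 to 80.8 kb upstream inside the neighbouring genes Galk2 and Fam227b, 2 of them in sequence of 69 and 70 copies. The ZHX1 and 46C-Ctrl hnRNPA1 peaks were in introns of Fgf7 at 15.5 kb and 26.2 kb. Fgf20, a ligand of the endocardium and epicardium, had 4 peaks in Zhx1-KO hnRNPA1, 1 in ZHX1 and 3 in 46C-Ctrl hnRNPA1, each of them downstream, at 31.9 to 200 kb.

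Fgf17, a ligand of the Fgf8 subfamily, had peaks in Zhx1-KO hnRNPA1 alone. One (chr14:70642232-70642476) lay over the start, its centre 86 bp before it, and the other 2.04 kb upstream, in a stretch of only 8.52 kb. Fgf22, a ligand of synapse formation, had the single promoter peak of 46C-Ctrl hnRNPA1 (chr10:79755525-79755747), in an intron 527 bp after the start. Its Zhx1-KO hnRNPA1 peak was elsewhere, 3.87 kb from the start and over the neighbouring gene Rnf126. Fgf3, Fgf4 and Fgf15 are neighbours on chromosome 7. Fgf4, a ligand of the early embryo, had a Zhx1-KO hnRNPA1 peak over an exon with untranslated sequence 3.16 kb from its start, another 11.3 kb upstream and a ZHX1 peak 10.5 kb downstream of the start. Fgf15, the endocrine ligand of the gut, had a ZHX1 peak 10.9 kb upstream and a 46C-Ctrl hnRNPA1 peak 4.11 kb upstream. Fgf3 had a Zhx1-KO hnRNPA1 peak 27.4 kb upstream and a ZHX1 peak 44 kb upstream. Fgf2 (basic FGF), Fgf6 and Fgf23 had 2 Zhx1-KO hnRNPA1 peaks each, at 9.95 and 34.9 kb, 30.6 and 31.9 kb, and 2.78 and 9.46 kb, and Fgf5 a ZHX1 peak in an intron at 18.3 kb. The 2 Zhx1-KO hnRNPA1 peaks and the 46C-Ctrl hnRNPA1 peak of Fgf16, another heart ligand, were in repeats of 3966 or more copies. The endocrine ligand Fgf21 had no peak in a stretch of 21.2 kb, and the nearest were 47.6 kb away in Zhx1-KO hnRNPA1, 13.4 kb in ZHX1 and 31.7 kb in 46C-Ctrl hnRNPA1.

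The intracellular genes Fgf12, Fgf13 and Fgf14 are among the longest members. Their density of peaks was below that of the genome in each list, for Fgf12 only a little. Fgf12 (595 kb) had 10 peaks in Zhx1-KO hnRNPA1, 5 in ZHX1 and 3 in 46C-Ctrl hnRNPA1. Per Mb of its stretch this was 16.7, 8.34 and 5.01 peaks, against 19.5, 8.78 and 5.54 over the genome. It has 4 curated starts, and Zhx1-KO hnRNPA1 had 2 peaks near them, centred 108 bp before the nearest inner start (chr16:28564440-28564766) and 396 bp after the outer one (chr16:28752731-28752962), both over coding exons. A ZHX1 peak was centred 1.16 kb before the inner start nearest to it, 1.5 kb from the Zhx1-KO hnRNPA1 peak. Fgf14 (699 kb) had 9 peaks in Zhx1-KO hnRNPA1, 5 in ZHX1 and 0 in 46C-Ctrl hnRNPA1. Fgf13 (523 kb, X chromosome) had 4 in Zhx1-KO hnRNPA1 and 0 in the 46C-Ctrl lists, and all 4 were in repeats. Per Mb of its stretch Fgf14 held 11.1 Zhx1-KO hnRNPA1 and 6.16 ZHX1 peaks and Fgf13 5.91 Zhx1-KO hnRNPA1 peaks, below the 19.5 and 8.78 of the genome. The X chromosome as a whole held 5.94 Zhx1-KO hnRNPA1 peaks per Mb, close to the value of Fgf13. Fgf11, the shortest of the 4, had 1 Zhx1-KO hnRNPA1 peak in an intron 1.47 kb from its start, and 1 46C-Ctrl hnRNPA1 peak over the gene carried the name of its neighbour Chrnb1.

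**Figure D4:**
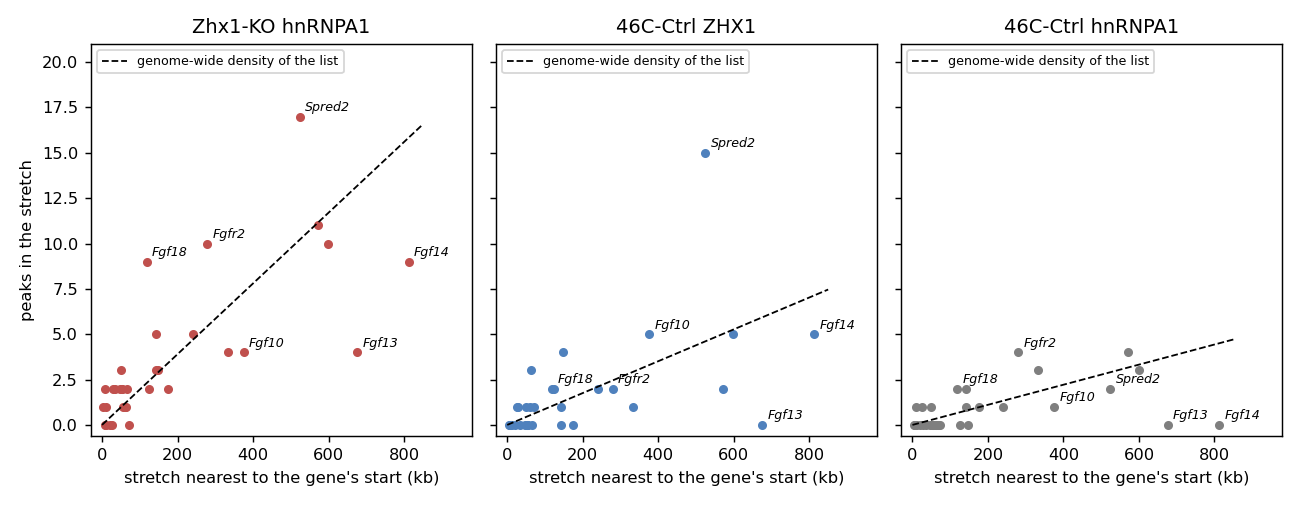
Number of peaks against the length of the stretch (kb) nearer to the gene's start than to any other curated start, for 33 genes (points), in the Zhx1-KO hnRNPA1, 46C-Ctrl ZHX1 and 46C-Ctrl hnRNPA1 lists from left to right. Dashed lines are the genome-wide densities of 19.5, 8.78 and 5.54 peaks per Mb, above which Spred2 stands in the first 2 panels and below which Fgf13 stands in all 3.

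Of the receptors, Fgfr2, a receptor for Fgf10 and Fgf7, had 10 peaks in Zhx1-KO hnRNPA1, 2 in ZHX1 and 4 in 46C-Ctrl hnRNPA1. Only 1, a Zhx1-KO hnRNPA1 peak 50.7 kb from the start, lay in the gene. Zhx1-KO hnRNPA1 had 7 upstream peaks, the nearest at 5.45 kb, and per Mb of the 279 kb stretch the lists held 35.9 Zhx1-KO hnRNPA1, 7.18 ZHX1 and 14.4 46C-Ctrl hnRNPA1 peaks. The ZHX1 peak (chr7:130278615-130278842) and a 46C-Ctrl hnRNPA1 peak (chr7:130278686-130279201) met 12 kb upstream of the start and shared 157 bp, the single position in the group at which both proteins had a peak in 46C-Ctrl cells. It was single-copy in both lists, and Zhx1-KO hnRNPA1 had no peak there. Fgfr1, the main receptor of mesoderm, had 2 peaks in Zhx1-KO hnRNPA1 at 45.3 and 47.6 kb upstream, 2 in ZHX1 and 0 in 46C-Ctrl hnRNPA1. One ZHX1 peak lay over an exon with untranslated sequence (chr8:25518843-25519070, 198 bp after the start, 70.6% GC) and the other 18.1 kb upstream, and 2 more inside the gene carried the name Gm16159. Fgfr3 had 1 Zhx1-KO hnRNPA1 peak 420 bp before an inner start (73.2% GC), and 3 ZHX1 peaks at 3.31, 26.9 and 31.6 kb. Fgfrl1, a receptor without a kinase domain, had a Zhx1-KO hnRNPA1 peak 103 bp after its start (chr5:108694207-108694456) with 82.4% GC and another at 2.82 kb. Fgfr4 had 2 Zhx1-KO hnRNPA1 peaks, 9.3 and 20.2 kb upstream.

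Among the inhibitors, Spred2 had the largest number of peaks of the 34 genes in the Zhx1-KO hnRNPA1 and ZHX1 lists. Spred proteins bind neurofibromin at the membrane and lower Ras activity. The gene (chr11:19924442-20022597, plus strand) had 17 peaks in Zhx1-KO hnRNPA1, 15 in ZHX1 and 2 in 46C-Ctrl hnRNPA1. In the Zhx1-KO hnRNPA1 list 160 of 21000 protein-coding genes had more peaks, in the ZHX1 list 15 and in the 46C-Ctrl hnRNPA1 list 1037. Upstream of the gene, between it and Meis1, whose start is 905 kb away, lay 15 of the Zhx1-KO hnRNPA1 and 13 of the ZHX1 peaks, against 0 of the 46C-Ctrl hnRNPA1 peaks. They were spread over 33.2 to 416 kb in Zhx1-KO hnRNPA1 and 58.5 to 386 kb in ZHX1. The remaining 2 peaks of each list were in introns, at 74.3 and 82 kb in Zhx1-KO hnRNPA1, 84.2 and 89.8 kb in ZHX1, and 20.9 and 71.1 kb in 46C-Ctrl hnRNPA1. No peak was near the start. Per Mb of its 524 kb stretch Spred2 held 32.5 Zhx1-KO hnRNPA1 peaks, against 39.6 for chromosome 11 as a whole. It held 28.6 ZHX1 peaks per Mb against 14.7, and 3.82 46C-Ctrl hnRNPA1 peaks per Mb against 10.6. The ZHX1 density was thus the one above that of the chromosome. Of the upstream peaks, 1 pair met: a Zhx1-KO hnRNPA1 peak (chr11:19540651-19540961) and a ZHX1 peak (chr11:19540902-19541129) shared 60 bp at 384 kb from the start, in single-copy sequence. Of all Spred2 peaks 16 of 17 in Zhx1-KO hnRNPA1, 11 of 15 in ZHX1 and 2 of 2 in 46C-Ctrl hnRNPA1 were single-copy.

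Spry2, an inhibitor induced by FGF signalling, had 5 peaks in Zhx1-KO hnRNPA1, 2 in ZHX1 and 1 in 46C-Ctrl hnRNPA1, the nearest of them 19.9, 62.5 and 36.4 kb from its start. Spry4 had 3 Zhx1-KO hnRNPA1 peaks together, 52 to 55.5 kb downstream, and 4 ZHX1 peaks at 7.17 to 86.6 kb, 1 of them in an intron. Spry1 had 1 Zhx1-KO hnRNPA1 peak 12.1 kb upstream. Spred1 had 3 peaks in Zhx1-KO hnRNPA1, at 21.8, 59.2 and 109 kb, and 2 in 46C-Ctrl hnRNPA1, at 18.6 and 47.6 kb. Spred3 had none in its stretch of 7 kb, and its nearest peaks were 12.7 kb away in Zhx1-KO hnRNPA1, 4.39 kb in ZHX1 and 121 kb in 46C-Ctrl hnRNPA1, while 1 ZHX1 peak inside the gene carried the name Fam98c. No Sprouty or Spred gene placed in the annotation had a promoter peak in any list, which also held for 78.7% of protein-coding genes.

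Peaks of one list rarely met those of another. Of the Zhx1-KO hnRNPA1 peaks, 2 of 123 overlapped a 46C-Ctrl hnRNPA1 peak (1.63%, 0.447 to 5.74), against 1.26% of the whole list, and 3 overlapped a ZHX1 peak (2.44%, 0.833 to 6.93), against 1.99%. Of the 56 ZHX1 peaks, 3 overlapped a Zhx1-KO hnRNPA1 peak (5.36%, 1.84 to 14.6), against 4.42%, and 1 a 46C-Ctrl hnRNPA1 peak (1.79%, 0.316 to 9.45), against 2.6%. Of the 27 46C-Ctrl hnRNPA1 peaks, 2 overlapped a Zhx1-KO hnRNPA1 peak (7.41%, 2.06 to 23.4), against 4.41%, and 1 a ZHX1 peak (3.7%, 0.657 to 18.3), against 4.12%. Each share was near that of its whole list. Accordingly 118 of 123 member peaks in Zhx1-KO hnRNPA1, 52 of 56 in ZHX1 and 24 of 27 in 46C-Ctrl hnRNPA1 overlapped neither other list. No position was in all 3. The same counts over the whole lists were not made, so these numbers do not set the members apart.

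In the hnRNPA1 lists of both lines, 2 positions met. At Fgf1 the Zhx1-KO peak (chr18:38935942-38936244) and the 46C-Ctrl peak (chr18:38935850-38936186) shared 245 bp, 17.4 kb upstream of the start, in sequence of 8 and 7 copies. At Spry2 the Zhx1-KO peak (chr14:105933464-105933726) and the 46C-Ctrl peak (chr14:105932925-105933483) shared 20 bp, 36.7 kb upstream, in sequence of 13 and 703.5 copies. The Zhx1-KO hnRNPA1 and ZHX1 lists met at Spred2, as above, at Fgf14 and at Fgf12. The Fgf14 position, 125 kb upstream, was in sequence of 1795 copies in both lists, which shared 277 bp there. The Fgf12 position (chr16:28295559-28295782 and chr16:28295375-28295781) lay in an intron in sequence of 2799 and 1836.5 copies. Of the 6 shared positions, those of Fgfr2 and Spred2 were single-copy.

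The copy number of a peak was taken from its words of 32 bases, each counted in the assembly, as the middle value of those counts, and the study kept uniquely mapped reads only. Of the members' Zhx1-KO hnRNPA1 peaks 37 of 123 (30.1%, 22.7 to 38.7) had 2 or more copies, against 31.4% of the list. For ZHX1 it was 11 of 56 (19.6%, 11.3 to 31.8) against 25.2%, and for 46C-Ctrl hnRNPA1 7 of 27 (25.9%, 13.2 to 44.7) against 24.4%. TAGGG, which written as RNA is the core of the known hnRNPA1 site, was present on either strand in 34.1% of the members' Zhx1-KO hnRNPA1 peaks, against 35.3% of the list, in 33.9% of ZHX1 peaks against 34.4%, and in 29.6% of 46C-Ctrl hnRNPA1 peaks against 35%. At the shared Fgf14 position the word was repeated, 86 times in the 530 bp Zhx1-KO hnRNPA1 peak and 45 times in the 277 bp ZHX1 peak. CCAAT was present in 33.3% of Zhx1-KO hnRNPA1 peaks against 38.2%, in 33.9% of ZHX1 peaks against 36.4%, and in 44.4% of 46C-Ctrl hnRNPA1 peaks against 36.3%. Every whole-list share lay within the interval of the members' share. Median GC was 48.2% in Zhx1-KO hnRNPA1, 46.5% in ZHX1 and 45.8% in 46C-Ctrl hnRNPA1 member peaks, against 48.3%, 46.3% and 46.7% over the lists.

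Some peaks near transcription starts had another composition. In the Zhx1-KO hnRNPA1 list, the start peaks of Fgfrl1, Fgf18 and Fgfr3 held 16.4, 15.1 and 13.6 CG per 100 bases, against a median of 3.39 over the list's 3204 peaks within 2 kb of a start and 0.959 over the list. The peaks of Fgf1, at 0.446, and Fgf7, at 0.738, and the second one of Fgf18, at 0.893, were below both medians. Those of Fgf12, at 9.79 and 3.88, Fgf9, at 6.07, Fgf11, at 4.52, and Fgf17, at 2.04, lay between these extremes. The ZHX1 peak at the start of Fgfr1 held 12.3 CG per 100 bases, against 2.55 over the list's peaks near a start. The Fgf22 peak of 46C-Ctrl hnRNPA1 held 0, against 1.35. By GC, the start peaks of Fgfrl1, Fgf18 and Fgfr3 exceeded 99.5%, 94.3% and 83% of the peaks near a start in their list. The ZHX1 peak of Fgfr1 exceeded 86.2% and the Fgf22 peak 71% of those in theirs. The Zhx1-KO hnRNPA1 peaks of Fgf7 and Fgf1 and the second one of Fgf18 exceeded 8.83%, 6.65% and 29.4%.

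The other genes of the pathway were taken as 3 lists. Of 19 co-receptors and heparan sulfate genes, 17 had a Zhx1-KO hnRNPA1 peak by name, 13 a ZHX1 peak and 12 a 46C-Ctrl hnRNPA1 peak, and 2, 0 and 0 had a promoter peak. Of 19 signal transducers the numbers were 13, 8 and 7 by name and 5, 4 and 0 at the promoter. Of 9 targets and feedback genes they were 8, 5 and 4 by name and 1, 0 and 0 at the promoter. Over all 47 genes, 80.9%, 55.3% and 48.9% had a peak by name and 17%, 8.51% and 0% a promoter peak, beside the 82.4%, 52.9% and 41.2% and the 27.3%, 9.09% and 3.03% of the FGF genes. Over all protein-coding genes the shares were 60.1%, 42.2% and 32.6% by name and 13%, 7.29% and 3.32% at the promoter. Among the transducers, Frs2, the adaptor that links the receptors to Ras, had a Zhx1-KO hnRNPA1 peak 233 bp after its start and a ZHX1 peak 1.96 kb before it, which did not overlap.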

How the data were processed

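ChIP-seq was done on 46C-derived CP cells, with 1 library per group named from the sample titles: hnRNPA1 in Zhx1-KO, ZHX1 in 46C-Ctrl and hnRNPA1 in 46C-Ctrl. The 2 inputs were not used here. The authors trimmed reads with cutadapt 1.18, dropped those under 50 bases, mapped with Bowtie2 2.3.5.1 to GRCm38, and removed unmapped, non-unique and duplicate reads. BWA (0.7.12-r1039) and deepTools (3.3.0) appear, with no role, in the submitters' processing notes. The sources used here do not state the peak caller, its threshold or how inputs entered. Besides a gene name, the lists deposited by the authors give only the positions of peaks, without scores, counts or p-values, so the depth is unknown and no test was run.

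Members and gene lists were chosen with earlier results of these data known. Peaks were counted by deposited name. Positions are 1-based. Starts and genes came from curated RefSeq transcripts on GRCm38, whose nearest start matched the deposited name of 201 of 206 member peaks. These were preferred to GENCODE M21, where a read-through transcript lengthens Fgfr2, after the files had been seen. Overlap was at least 1 bp, and promoters reached 2 kb from a start in both directions. Genes described in full were Fgf8, Fgf10, those with a promoter peak, those in all 3 lists, those with a shared position and the 5 with most peaks. Other pathway genes were named when 2 lists had a promoter peak. Some items that met these rules are not reported here. Sequences are RefSeq's GRCm38. Alternatives changed the assignment to genes, the width, number and copy number of peaks, the overlap and the promoter window. Overlap, distance and copy-number steps were tested on simulated data. The software was matplotlib 3.10.9, numba 0.67.0, Python 3.11.15, scipy 1.17.1, pandas 2.3.3 and numpy 2.4.6.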

Additional observations from a re-analysis of the deposited data

How the results depend on the processing

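Of 63 alternative counts 42 stayed within 1.5 times the reported one and 21 did not, and values are given in the order Zhx1-KO hnRNPA1, ZHX1, 46C-Ctrl hnRNPA1. With a peak counted, under any name, only where it overlaps the gene, peaks numbered 41, 17 and 8 and genes 16, 10 and 7. That count was made for members only. With only peaks wider than the median of their list, peaks numbered 61, 25 and 15, and ZHX1 genes 10. With the widest 14662 peaks of each list, peaks numbered 33 in Zhx1-KO hnRNPA1 and 28 in ZHX1, and genes 18 and 11, against the unchanged 27 and 14 in 46C-Ctrl hnRNPA1. At that equal length 52.9% of the members had a Zhx1-KO hnRNPA1 peak against 31.6% of protein-coding genes, 32.4% a ZHX1 peak against 31.9%, and 41.2% a 46C-Ctrl hnRNPA1 peak against 32.6%. Without chromosome 11, an alternative chosen after seeing the data, ZHX1 peaks numbered 37. With a promoter of 5 kb, ZHX1 genes numbered 6 and 46C-Ctrl hnRNPA1 genes 3. With centres within 5 kb counted as shared, 13 Zhx1-KO hnRNPA1 peaks were at a 46C-Ctrl hnRNPA1 peak, 14 at a ZHX1 peak, and 2 ZHX1 peaks at a 46C-Ctrl hnRNPA1 peak. An overlap of at least 50% of the shorter peak left 1 hnRNPA1 position in both lines. What lay behind these changes was not tested. The GENCODE M21 starts, also chosen after seeing the data, added promoter peaks of Fgf20 and Fgfr2 in Zhx1-KO hnRNPA1 and of Fgf10 in ZHX1. No paired analysis was possible because each group has 1 library, and for the same reason no replicate could be left out. The unknown depth limits every comparison of list lengths.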
